A study of Oryza sativa with 4 samples.

Results

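Splicing factors and proteins of the small nuclear ribonucleoproteins (snRNPs) were followed in rice shoots after a short heat treatment. A locus counted as a member when the description of at least 1 of its transcripts in the deposited table named a splicing factor, the spliceosome, an snRNP, an SR protein, or pre-mRNA splicing or processing. These words took in 58 of the 10455 loci, with 85 of the 14122 listed transcripts. Of the 85 transcripts, 70 matched by their own description and the others belong to a locus that did. By description the 58 were 19 SR proteins, 5 Sm proteins of the snRNP core, 7 SF3 subunits, 4 U2AF subunits, 6 proteins of a particular U snRNP and 17 other factors. OS03T0289200 is described as an H/ACA ribonucleoprotein subunit, a complex that modifies RNA rather than splices it, and was kept because the rule took it in.

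The study grew wild-type rice in a greenhouse for 2 weeks and turned the pots over so that the shoots hung in a water bath for 10 min, at 22 °C for the control and at 42 °C for heat. Both groups were therefore immersed, and temperature alone differs between their labels. Ribosome profiling, which sequences the mRNA fragments that ribosomes protect, was done on 2 biological replicates at each temperature, each a pool of shoots, to learn how translational efficiency differs between the temperatures. The deposited table gives 1 pooled score for each transcript at each temperature. These scores are taken as translational efficiency because the design text names it; no header gives a formula, a log step or a scaling per length. Scores of different loci are therefore placed in order only as deposited. With no value per replicate there is no spread, no test and no p-value. The depth behind each score is unknown, and every difference below is a comparison of 2 scores. In whole shoots, a change in the mix of cells and a change within cells cannot be told apart. Of loci described as Rubisco small subunit, Rubisco activase or chlorophyll a/b-binding protein, markers of green tissue, 18 are listed, but a score of this kind does not measure abundance and so does not test the tissue label.

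Splicing removes introns from pre-mRNA in the nucleus. The U1 snRNP binds the start of the intron, U2AF and the U2 snRNP with its SF3a and SF3b subcomplexes bind near its end, and the U4/U6.U5 tri-snRNP then joins to form the active spliceosome. A ring of Sm proteins forms the core of most of these particles, and SR proteins, which carry an RNA recognition motif and a domain rich in arginine and serine, bind exons and help to recruit U1 and U2AF. Plants have several SR families, and the transcripts of many SR genes are themselves alternatively spliced in response to temperature.

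As a group, the splicing loci were spread about as widely as the rest of the table, with some single loci far from an equal score. Of the 52 members with a score above 0 at both temperatures, 9 (17.3%) were at least 2-fold higher at 42 °C, against 16.1% of all 9280 such loci. A further 12 (23.1%) were at least 2-fold lower, against 21.6% of all such loci, so both shares were near the background. With 1.5-fold as the line, 17 were higher and 15 lower, where the background was 27.8% and 30.8%. The median log2 ratio of 42 over 22 °C was 0.22 for the members, with quartiles of -0.89 and 0.79, and 0.03 for all loci, with quartiles of -0.83 and 0.67. Loci with a mean score of at least 0.2 had a median of 0.27 over the whole table, and when ratios are centred on that value the members' median turns negative, at -0.05. The 2-fold line fell between close values: the SC35 locus OS07T0623300 lay just inside it, at 1.99-fold, and the spliceosomal protein locus OS03T0298800 just outside, at 2.02-fold.

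**Figure D1:**
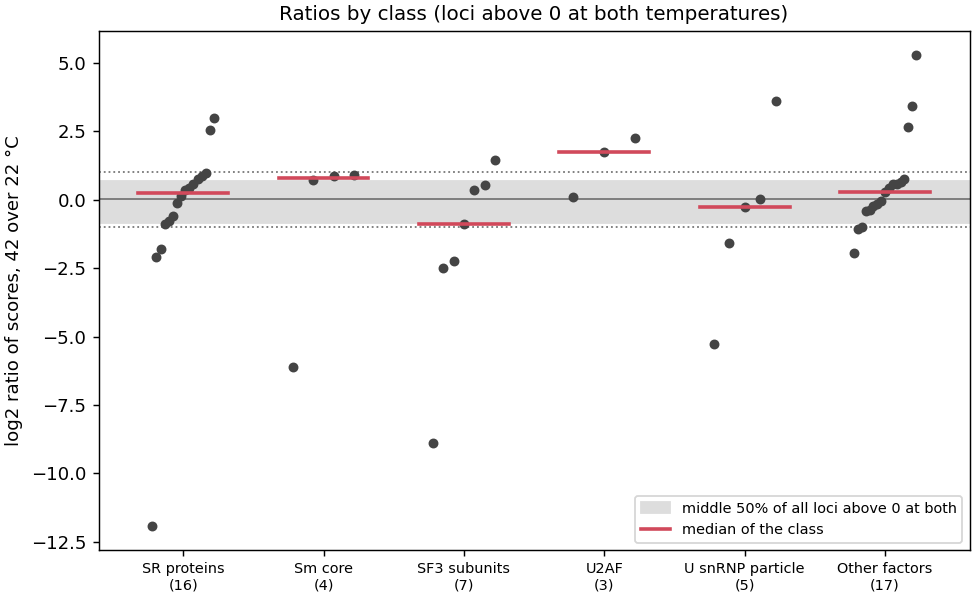
Each point is the log2 ratio of the deposited scores, 42 over 22 °C, of 1 locus above 0 at both temperatures, by class, with the number of loci in brackets; red lines are class medians, dotted lines mark 2-fold, and the grey band holds the middle 50% of all loci. The 3 U2AF points all lie above 0 on this uncentred scale, SF3 points spread from -8.90 to 1.47, and most of the SR points and of the points of other factors lie between the dotted lines.

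Splicing loci had low to middling scores. Their median was 0.0427 at 22 °C and 0.0492 at 42 °C, against 0.0792 and 0.0720 over all loci. At 22 °C 22 of the 58 exceeded the median of all loci and at 42 °C 25 did, and at neither temperature did any exceed the 90th percentile of 0.422 and 0.495. The top member score was 0.244 at 22 °C (OS01T0526100, similar to splicing factor 45) and 0.377 at 42 °C (Sm protein F, OS11T0657300). Direction was also counted by level. Of the 33 members with a mean score of at least 0.05, 23 were higher at 42 °C and 10 lower (median log2 ratio 0.44), and of the 19 below that level and above 0 at both temperatures, 6 were higher and 13 lower (median -0.76). The whole table was split in the same directions. Of its loci above 0 at both temperatures, 3522 of 6239 were higher at a mean of at least 0.05, and 1218 of 3041 below that level. The whole-table medians were 0.15 and -0.45. The mean holds both temperatures, so a locus can pass through the one at which it is high: 9 of the 23 higher members were below 0.05 at 22 °C, and 5 of the 10 lower ones below 0.05 at 42 °C. These counts therefore give no separate evidence of a direction. The part of level in the differences described here was not tested.

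SR proteins divided between loci close to equal scores and a few far from it. Of 19 SR loci, 16 were above 0 at both temperatures, of which 11 differed by less than 2-fold. Beyond that, 2 (12.5%) had a higher score at 42 °C and 3 (18.8%) a lower one, near the 16.1% and 21.6% of all loci. Their median log2 ratio was 0.25, and -0.01 when centred on loci with a mean of at least 0.2. The RSZ33 locus OS05T0120100 belongs to a plant SR family with zinc knuckles beside the RNA recognition motif. It had a score of 0.0405 at 22 °C and 0.236 at 42 °C, 5.84-fold higher, and moved from the 36.0th to the 75.9th percentile of all loci. Its transcripts were close to each other, from 0.0427 to 0.244 and from 0.0382 to 0.228. OS07T0673500, similar to SRP32 of the ASF/SF2 family, was 7.92-fold higher but scored only 0.000504 and 0.00399. Its transcript described as SRP32 was listed at 0 at 22 °C and had 0.00312 at 42 °C, which gives no fold. The fold of the locus therefore depends on OS07T0673500-02, described only as similar to a cDNA clone, with 0.00101 and 0.00485.

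The SR loci with lower scores under heat included 1 of those similar to RSZp22, a small SR protein with a single zinc knuckle that resembles human 9G8. This locus, OS02T0789400, had 0.0705 at 22 °C and 1.8e-05 at 42 °C. Of its transcripts, 1 was listed at 0 and the other at 3.6e-05 at 42 °C, against 0.0634 and 0.0776 at 22 °C, so the fold is set by a score next to 0. An SC35 locus, OS08T0486200, had 0.00862 and 0.00202, and the RSZ33 locus OS03T0285900 had 0.0313 and 0.00899. SC35 is an SR protein that takes part in early recognition of splice sites.

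Most other SR loci stayed within 2-fold. Those with higher scores at 42 °C were the SC35 locus OS07T0623300 (0.0409 and 0.0812), the SF2 locus OS05T0364600 (0.0379 and 0.0645), the RSZp22 locus OS02T0610600 (0.0850 and 0.126), the RSZ33 locus OS01T0155600 (0.0993 and 0.134), OS04T0118900, described as arginine/serine-rich splicing factor 1 (0.115 and 0.149), and the low-scored SCL30a locus OS07T0633200 (0.000374 and 0.000675). SCL proteins are plant relatives of SC35. The SCL30 loci were almost level, at 0.0312 and 0.0287 for OS02T0252100 and at 0.0302 and 0.0334 for OS12T0572400, whose log2 ratio of 0.14 falls below 0 under the centring above. The lower ones were OS12T0554000, described as arginine/serine-rich 12 and the top SR score at 22 °C (0.223 and 0.149), the SRP32 locus OS03T0344100 (0.0354 and 0.0190) and the arginine/serine-rich OS02T0122800 (0.0199 and 0.0118). The 3 SR loci without a fold were OS02T0170200, listed at 0.0384 and 0, OS01T0316600, listed at 0 and 0.000161, and OS12T0516700, listed at 0 at both temperatures.

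**Figure D2:**
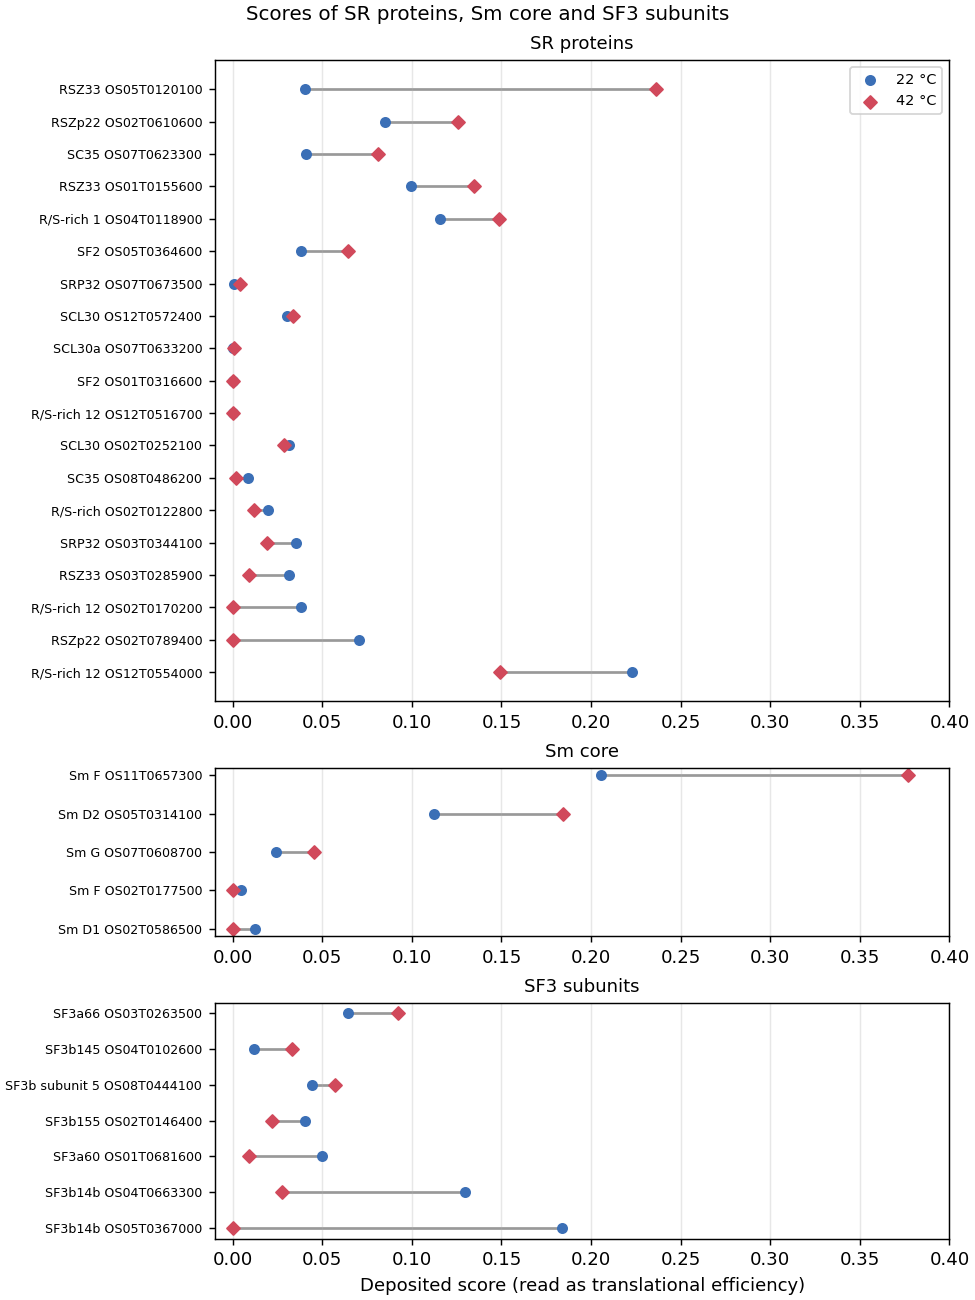
Deposited scores at 22 °C (blue circles) and 42 °C (red diamonds) of each SR, Sm core and SF3 locus, joined by a line and ordered by the difference between temperatures; the horizontal axis is linear and the same in all panels. The RSZ33 locus OS05T0120100 and the Sm F locus OS11T0657300 show the widest gaps toward 42 °C, and both SF3b14b loci the widest gaps toward 22 °C.

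Sm proteins form the ring on which U1, U2, U4 and U5 snRNPs are built. Of 5 loci, 3 had higher scores at 42 °C, all within 2-fold, and the remaining 2 were low-scored and lower. Sm F (OS11T0657300) had 0.206 at 22 °C and 0.377 at 42 °C, Sm D2 (OS05T0314100) had 0.112 and 0.184, and Sm G (OS07T0608700) had 0.0243 and 0.0452. These 3 differed by 1.83-, 1.64- and 1.86-fold, and each remained higher when centred on loci with a mean of at least 0.2. A second Sm F locus, OS02T0177500, had 0.00476 and 7.0e-05, and Sm D1 (OS02T0586500) had 0.0127 and was listed at 0 at 42 °C. The median log2 ratio of the 4 with a fold was 0.79, where that of all loci was 0.03. The pair of loci described only as small nuclear ribonucleoprotein homologs, which the words for Sm proteins did not take in, were also higher, from 0.203 to 0.301 for OS08T0151400 and from 0.0858 to 0.115 for OS02T0126700.

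SF3a and SF3b are the subcomplexes of the U2 snRNP that hold it at the branch site of the intron, and their loci went different ways. Of 7 loci, 4 lay beyond 2-fold, 3 of them lower at 42 °C and 1 higher, and 3 stayed inside it. The median log2 ratio was -0.89. Of all loci above 0 at both temperatures, 21.6% were at least 2-fold lower and 16.1% higher. A class of 7 loci is too small for its share to be set firmly against these. Both loci similar to SF3b14b, known in human cells as PHF5A, which sits against the branch site, had lower scores under heat. OS04T0663300 had 0.129 at 22 °C and 0.0273 at 42 °C, 4.75-fold lower. OS05T0367000 had 0.184, the top SF3 score at 22 °C, and 0.000384 at 42 °C, next to 0, so that its fold has little meaning beyond its direction. These loci went from the 62.1st to the 33.5th and from the 71.5th to the 10.8th percentile of all loci.

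The SF3a subunit SF3a60 (OS01T0681600) had 0.0499 and 0.00894, 5.57-fold lower. SF3b155 (OS02T0146400), known in human cells as SF3B1, the large scaffold of SF3b, had 0.0405 and 0.0219, within 2-fold. Against these, SF3b145 (OS04T0102600), a partner of SF3b155, had 0.0119 and 0.0329, 2.77-fold higher, SF3a66 (OS03T0263500) had 0.0641 and 0.0925, and SF3b subunit 5 (OS08T0444100) had 0.0445 and 0.0570. Summed over the 7 loci the scores were 0.524 at 22 °C and 0.241 at 42 °C. The SF3b14b loci held 0.313 and 0.0276 of these sums, so the lower sum at 42 °C comes from that pair. Scores of different loci have no stated common scaling, so the sums do not measure SF3 as a whole.

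U2AF recognises the end of the intron before the U2 snRNP joins: its large subunit binds the pyrimidine-rich tract and its small subunit the AG at the splice site. All 4 U2AF loci had higher scores at 42 °C, 1 of them only as long as ratios are not centred on loci with a mean of at least 0.2. Over the whole table, 4974 of 10455 loci were higher at 42 °C. At least 2-fold higher were 16.1% of the loci above 0 at both temperatures. The large subunits A (OS11T0636900) and B (OS11T0682300) went from 0.0265 to 0.126 and from 0.0237 to 0.0788, 4.76- and 3.32-fold higher. The small subunit locus OS05T0564200 was nearly level, with 0.127 and 0.136, and its log2 ratio of 0.10 falls below 0 when centred on loci with a mean of at least 0.2. The other small subunit locus, OS09T0491756, was listed at 0 at 22 °C and had 0.0533 at 42 °C, with both of its transcripts at 0 and then at 0.0488 and 0.0578. At 22 °C the large subunits A and B were at the 29.2nd and 27.6th percentile of all loci, and at 42 °C at the 61.6th and 51.8th. These 4 loci are few, and their common direction has no replicate behind it.

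Proteins of single snRNPs went both ways. U1A (OS05T0154800), which binds a stem-loop of U1 RNA, had 0.0106 at 22 °C and 0.129 at 42 °C, 12.1-fold higher. U1-70K (OS10T0115600), another U1 protein, had low scores of 0.00222 and 5.8e-05. The U5 40 kDa protein (OS06T0653800), a WD-repeat partner of the spliceosome's central protein Prp8, had 0.121 and 0.0405, 2.99-fold lower. A further U5 component, OS06T0608300, had 0.0849 and 0.0710. Its transcript described as a U5 component had 0.0105 at 22 °C and was listed at 0 at 42 °C. The locus score comes mainly from the other transcript, described only as a small nuclear ribonucleoprotein component, with 0.159 and 0.142. The NHP2-like protein of the tri-snRNP (OS03T0241200), which binds U4 RNA, was almost level at 0.241 and 0.248. Its log2 ratio of 0.04 falls below 0 under the centring above. The U2 A' locus OS02T0234800 was listed at 0 at both temperatures.

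Among the 17 other factors 3 lay beyond 2-fold on the higher side at 42 °C and 3 on the lower side. Each is a share of 17.6%, near the 16.1% and 21.6% of all loci. The widest gap between the scores of any member was that of OS03T0395900, with a domain named for the suppressor of white apricot, a splicing regulator of Drosophila. It had 0.00565 at 22 °C and 0.223 at 42 °C, moving from the 15.0th to the 74.4th percentile of all loci. Its transcripts went from 0.00108 to 0.269 and from 0.0102 to 0.177, of which the former is described only as a hypothetical conserved gene. The H/ACA subunit OS03T0289200 had 0.0197 and 0.124, and a PRP38-domain protein, OS06T0143600, was low at 0.000682 and 0.00733. PRP38 is known from yeast as a factor needed to activate the assembled spliceosome.

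The 3 factors at least 2-fold lower were SLU7, SYF2 and a spliceosomal protein. SLU7 (OS08T0127700), known in yeast and human cells for the choice of the splice site at the end of the intron, had 0.129 and 0.0333, 3.87-fold lower, with transcripts going from 0.139 to 0.0270 and from 0.118 to 0.0395. SYF2 (OS06T0711600), a factor of the active spliceosome, had 0.0579 and 0.0275. Its transcripts differed, from 0.0562 to 0.0404 (1.39-fold lower) and from 0.0596 to 0.0146 (4.09-fold lower), so its call rests on the latter. OS03T0298800, described only as a spliceosomal protein, had 0.0760 and 0.0377. Both loci lay close to the 2-fold line.

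The best-scored of these factors lay within 2-fold. OS01T0526100, similar to splicing factor 45, had 0.244 and 0.298, Cwf18 (OS06T0730800) had 0.177 and 0.277, and prp45 (OS02T0759800), named for the yeast counterpart of the human protein SKIP, had 0.156 and 0.266. BAT1 (OS01T0550000), a helicase that works in early spliceosome assembly and mRNA export, had 0.192 and 0.145. The remaining 5 without an account elsewhere in the text also lay within 2-fold. They were cwc15 (OS06T0106100, 0.140 and 0.108), the DUF2050 protein OS08T0178300 (0.0922 and 0.137), OS04T0385700, described as splicing factor-related (0.121 and 0.116), the pre-mRNA splicing factor fragment OS12T0572300 (0.0460 and 0.0409) and the PWI-domain protein OS03T0270200 (0.00259 and 0.00221). All 6 members with a mean score of at least 0.2, which are Sm F, splicing factor 45, the snRNP homolog OS08T0151400, the NHP2-like protein, Cwf18 and prp45, had higher scores at 42 °C and stayed within 2-fold, the NHP2-like protein turning lower when centred on loci of that level. Of all loci at that level and above 0 at both temperatures, 1903 of 2898 were higher. Cwf18 and prp45 were below 0.2 at 22 °C and reached that mean through their 42 °C score, so the common direction is partly set by the choice of level.

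**Figure D3:**
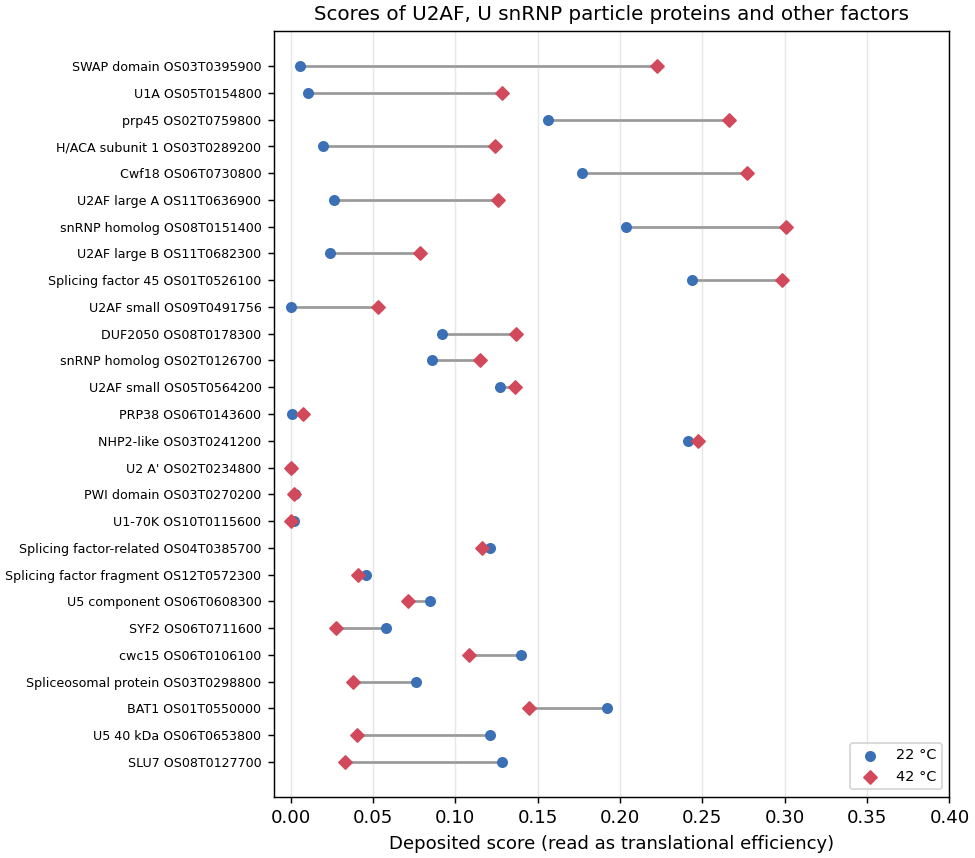
Deposited scores at 22 °C (blue circles) and 42 °C (red diamonds) of the U2AF, single-snRNP and other splicing loci on a linear axis, joined by a line and ordered by the difference. The suppressor of white apricot domain locus (0.00565 and 0.223) and U1A (0.0106 and 0.129) have the widest gaps toward 42 °C, and SLU7 (0.129 and 0.0333) the widest toward 22 °C.

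Several members are copies of each other by description. In 12 sets of loci with the same or a paired description, 26 loci in all, 6 sets held loci in opposite directions. Of 881 sets of 2 or 3 loci in the whole table with the same description, hypothetical and unknown proteins left out, 45.2% did so, so the share among the splicing sets is near the background. Centring on loci with a mean of at least 0.2 also gives 6 sets, with the U2AF small subunits in place of SCL30, whose loci differ little. Of the 3 RSZ33 loci, OS05T0120100 was 5.84-fold higher and OS01T0155600 1.35-fold higher, whereas OS03T0285900 was 3.48-fold lower. The RSZp22 pair had similar scores at 22 °C, 0.0850 and 0.0705, and then parted, to 0.126 in OS02T0610600 and next to 0 in OS02T0789400. The SC35 pair and the Sm F pair parted in the same way, with the better-scored locus higher at 42 °C and the other lower, while in the SRP32 pair the better-scored locus was the lower one. Reads of near-identical copies may have been divided between loci in the counting, a step the labels do not describe; the scores summed over both RSZp22 loci were 0.155 and 0.126, over both Sm F loci 0.211 and 0.377, and over the 3 RSZ33 loci 0.171 and 0.380. The sum over both SF3b14b loci was 0.313 at 22 °C and 0.0276 at 42 °C. A sum of ratios is not the ratio of summed reads, so these sums only set the scores of copies together.

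**Figure D4:**
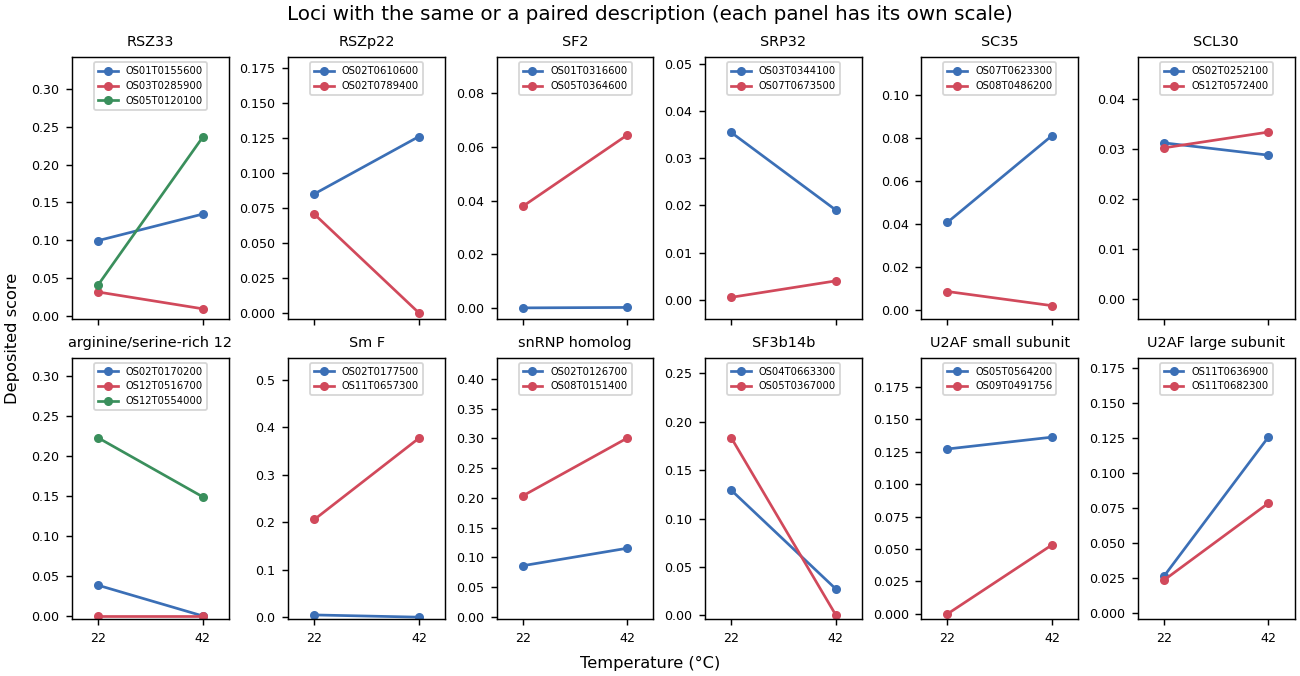
Deposited scores at 22 and 42 °C of loci that share a description, or a paired one for the U2AF large subunits A and B, with 1 line per locus and a separate linear scale in each panel. Lines go in opposite directions in the RSZ33, RSZp22, SC35, SCL30, SRP32 and Sm F panels, only slightly in SCL30, and both SF3b14b lines go down.

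A locus mean can hide transcripts that differ, and 26 members had more than 1 listed transcript. In 6 of the 26 (23.1%) some transcripts were higher and others lower at 42 °C, against 727 of 2848 loci (25.5%) in the whole table. Sm G was the clearest, with a transcript from 0.0362 to 0.0872 and the other from 0.0124 to 0.00315. Of the Sm D2 transcripts, OS05T0314100-03 went from 0.0752 to 0.224, while OS05T0314100-02 was almost level at 0.149 and 0.144. BAT1 had 0.294 and 0.175 in the transcript described as the helicase BAT1, but 0.0902 and 0.115 in the one described by its helicase domain. In SF3b155 both transcripts were lower to different degrees: the one described as SF3b155 had 0.0174 and 0.000993, and the one described only as similar to a predicted protein had 0.0637 and 0.0428. The within-2-fold ratio of that locus therefore rests on a transcript with no splicing word in its description. Transcripts of 1 locus can share sequence and reads, so their scores are not independent.

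**Figure D5:**
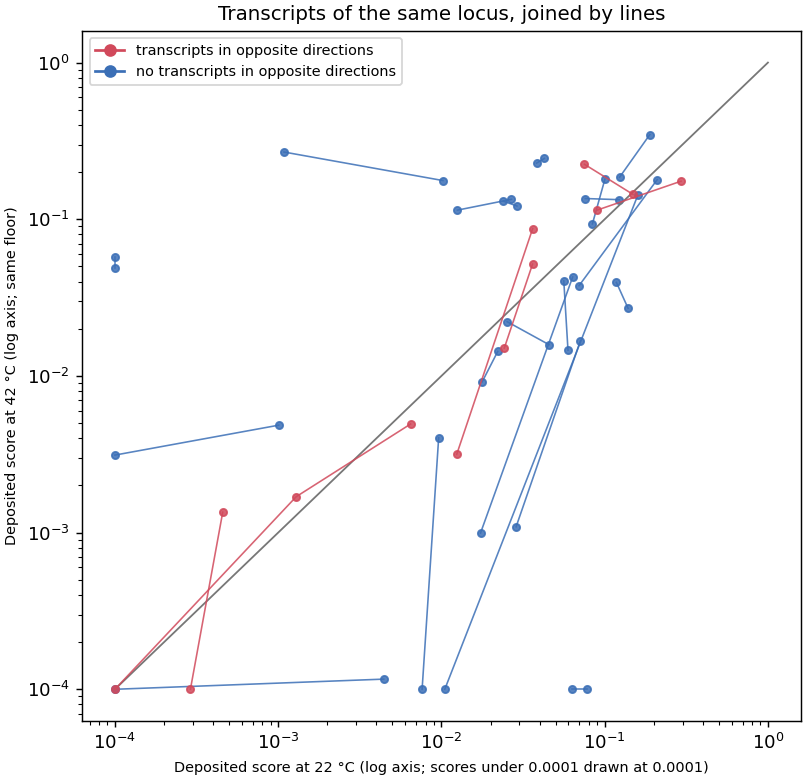
Each point is a transcript of a member with more than 1 listed transcript, with its deposited score at 22 °C against that at 42 °C on log axes; lines join transcripts of the same locus, and scores under 0.0001, zeros included, are drawn at 0.0001. The 6 loci in red have transcripts on both sides of the diagonal, which marks equal scores.

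Words for other steps of RNA processing, outside the rule, took in 59 loci, of which 53 were above 0 at both temperatures. By description these include genes of other kinds, such as translation initiation factors, a chromatin helicase and RNA-binding proteins of unstated function, so the shares are those of a word list. Of these, 5 (9.43%) lay beyond 2-fold on the higher side and 11 (20.8%) on the lower, and the median log2 ratio was -0.22. Over all loci above 0 at both temperatures the shares were 16.1% and 21.6% and the median 0.03, so the lower share is near the background. The counts of the single lists below are to be read beside these whole-table shares. Of 10 loci with words for Sm-like (LSm) proteins, whose ring binds U6 RNA or takes part in mRNA decay, 8 lay within 2-fold, with a median of 0.03. LSm2 (OS08T0154700) was the exception on the lower side, with 0.123 and 0.00416, and an LSm-related domain protein (OS01T0111200) the exception on the higher side, with 0.102 and 0.296. By description, 1 of the 10, OS09T0411650, is a Rubisco methyltransferase taken in by the letters of its name. Both cleavage and polyadenylation factors, which form the mRNA end, were at least 2-fold lower, at 0.0511 and 0.0193 (OS03T0852900) and 0.0544 and 0.0266 (OS04T0683100). Both Mago nashi loci, of the complex left on spliced exon junctions, were lower within 2-fold, at 0.382 and 0.259 (OS08T0107900) and 0.226 and 0.201 (OS12T0287200). Of 8 loci with PRP or DEAH words, 5 had a fold, all lower at 42 °C and 3 of them at least 2-fold, among them Prp18 (OS07T0571900), a factor of the second splicing step, with 0.125 and 0.0245. That list also holds helicases that are no splicing factor by description. Of 5 CRM-domain loci, a family known for splicing introns in plastids, 2 were at least 2-fold lower and 3 within 2-fold. The 4 cap-binding loci all lay within 2-fold; OS01T0970400 and OS03T0262400 are described as the translation initiation factor eIF4E, and OS02T0612300 as the nuclear cap binding protein. The RNA recognition motif and glycine-rich list of 28 loci had a median of -0.06, with 4 beyond 2-fold on the higher side and 3 on the lower. Words for SKIP took in 10 loci, mostly described as SKIP interacting proteins, with a median of -0.02 and 2 beyond 2-fold on each side. Words for polypyrimidine tract proteins and for further SR proteins took in 0 loci.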

How the data were processed

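Scores were deposited by the authors in 1 table, with 1 value per transcript and temperature; per the file headers the columns carry only the temperature and the difference. Per the submitters' processing notes, footprint reads were handled with cutadapt and Bowtie2, with no version given. The build, the annotation, the RNA libraries behind a ratio and the way replicates were joined are unstated in the labels and the header. In all 14122 transcripts the deposited difference matched 42 minus 22 °C within 1e-05. Scores were averaged over the transcripts of each locus (the identifier before the hyphen), and log2 ratios were taken for loci above 0 at both temperatures. A call means at least 2-fold and is a description. Classes came from words in the descriptions; both U2AF small subunits and U1A were then reassigned by description. The members, lists and classes were chosen with earlier results of these data known. Named genes are all SR, Sm and SF3 loci, other members at least 2-fold apart or among the 10 top mean scores, and members at 0; the remaining members are given for completeness. Genes named from outside the rule were picked with their scores in view. By locus, 0 members matched the RefSeq gene table of assembly ASM3414082v1, so no symbols, coordinates or sequences were taken from it. Python 3.11.15, numpy 2.4.6, pandas 2.3.3, scipy 1.17.1 and matplotlib 3.10.9 were used.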

Additional observations from a re-analysis of the deposited data

How the results depend on the processing

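No paired analysis was possible because the table holds no value per replicate, and for the same reason no replicate could be left out. The count of members at least 2-fold higher, 9 of 52, became 17 of 52 at 1.5-fold (27.8% of all loci), 16 of 71 with each transcript on its own (16.9% of all transcripts), 3 of 58 with 0.1 added to every score (2.44% of all loci) and 0 of 6 at a mean of at least 0.2 (11.6%). The count at least 2-fold lower, 12 of 52, became 5 of 33 at a mean of at least 0.05 (14.4% of all loci), 1 of 58 with 0.1 added (2.61%) and 0 of 6 at a mean of at least 0.2 (7.52%). The members' median of 0.22 became 0.61 at a mean of at least 0.2. Centring on loci with such a mean turned it to -0.047 and the SR median to -0.011. The SF3 median was below 0 under all 11 alternatives that gave a value. It ran from -2.25 when only transcripts with a matching description were used to -0.20 with 0.1 added. The Sm median was above 0 under all 12, from 0.22 to 0.87. Some alternatives could not move these medians: leaving out the H/ACA locus or transcripts numbered 00 touched neither class. The Sm median rested on 2 loci at a mean of at least 0.05 and on Sm F alone at 0.2, which gave the 0.87. The level lines drop both lower Sm loci, so this agreement is partly set in advance. A mean of at least 0.2 left no SR or SF3 locus. The cause of these shifts was not tested. Most calls rest on scores under 0.2, with unknown depth.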

Other observations

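LAMMER-type kinases phosphorylate SR proteins in animals and plants. The locus described as similar to a LAMMER-type protein kinase, OS12T0460800, matched none of the words used and was chosen after its scores were seen. All 3 of its transcripts were listed at 0 at 22 °C. At 42 °C the score was 0.0289 in OS12T0460800-01 and 0.0338 in OS12T0460800-02, and OS12T0460800-03 was again listed at 0. Of the splicing loci 2 were listed at 0 at 22 °C alone: the U2AF small subunit locus OS09T0491756, scored in both transcripts at 42 °C, and the SF2 locus OS01T0316600, at 0.000161 at 42 °C. Of all loci, 234 were listed at 0 at 22 °C alone and 480 at 42 °C alone.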
